A study of Mus musculus with 12 samples.

Results

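The Gimap genes encode GTPases of the immunity-associated protein family, small GTP-binding proteins that are made mainly by lymphocytes. The 8 genes described here, Gimap1, Gimap3, Gimap4, Gimap5, Gimap6, Gimap7, Gimap8 and Gimap9, were chosen by gene symbol from the 36222 gene identifiers of the expression table, and each symbol matched 1 identifier. All 8 passed the filter on low values and were measured in every library. The data are RNA sequencing libraries of sorted murine regulatory T cells (Treg), 12 in number, in 4 groups of 3. The wild-type (WT) groups came from mice with a Foxp3-YFP-Cre allele alone, and the cKO groups from mice of the same Cre strain that were also homozygous for a floxed Ikzf1 allele, so that both genotypes carried Cre and YFP and deletion was limited to Foxp3-expressing cells. Ikzf1 encodes the transcription factor Ikaros. The mice were on a B6 background and, in the ex vivo groups, 6 to 8 weeks old (the age for the stimulated groups is not given in the sources used here), the cells of each library came from a single animal and, per the labels, from spleen, and Treg were taken from CD4+ cells by sorting for YFP. In each genotype 1 group was kept unstimulated after the sort (ex vivo) and 1 was stimulated for 4 h on plate-bound anti-CD3 and anti-CD28 at 1 µg/ml each. Changes with stimulation are those of stimulated against ex vivo cells. No group is described as cultured without the antibodies, so stimulation and the 4 h in culture cannot be told apart.

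GIMAP proteins share a GTP-binding domain of the AIG1 type, and several are anchored in the membranes of intracellular organelles. They are best known for keeping resting T cells alive: loss of Gimap5 depletes T cells in mice and rats, Gimap1 is needed for mature T and B cells, and Gimap4 is linked to the course of T cell death. Gimap3 and Gimap5 have been tied to the BCL2 family of cell death regulators, and Gimap6 binds Gabarapl2, a protein of the autophagy machinery. The genes lie side by side on 1 chromosome, and the comparisons ask how each one is expressed in Treg, how it responds to stimulation and how it differs when Ikaros is lost.

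In NCBIM37 (mm9) the 8 gene models fill chr6:48597233-48716518, a stretch of 119286 bp. From the start of the stretch the order of the models is Gimap8, Gimap9, Gimap4, Gimap6, Gimap1 and Gimap7 (whose models start close together), Gimap5 and Gimap3. RefSeq starts Gimap1 further on: the 250 bases before that start are chr6:48688796-48689045 in mm9, inside the model. The 250 bases before the RefSeq start of Gimap3 are chr6:48720851-48721100 in mm9, beyond the end of its model. Gimap6 (chr6:48651581-48658224) and Gimap3 (chr6:48715088-48716518) are on the minus strand and the other 6 on the plus strand, among them Gimap8 (chr6:48597233-48610874), Gimap9 (chr6:48626128-48629113) and Gimap4 (chr6:48634548-48642061). The model of Gimap1 (chr6:48668606-48702599) runs across Gimap7 (chr6:48668620-48674635) and into Gimap5 (chr6:48696196-48704209). It shares 81 exonic bases with Gimap7 and 109 with Gimap5 on the same strand, and reads that overlap such bases were assigned to neither gene by the counting rule of the study. These are 8.95% of the exonic bases of Gimap1, 6.38% of those of Gimap7 and 4.63% of those of Gimap5, and per unshared base the levels of these 3 genes would be 1.10, 1.07 and 1.05 times those given here. The Gimap3 model holds 906 exonic bases, against 3496 in Gimap6 and 3700 in Gimap8.

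The 250 bases before the RefSeq start site (GRCm38.p6) are printed for 4 members that changed with stimulation, 2 in each direction. Gimap6 and Gimap5 fell in WT Treg, whereas Gimap3 and Gimap4 rose in cKO Treg, as described further on. The windows are chr6:48708245-48708494 on the minus strand for Gimap6, chr6:48745947-48746196 on the plus strand for Gimap5, chr6:48684328-48684577 on the plus strand for Gimap4 and chr6:48770852-48771101 on the minus strand for Gimap3. Capitals mark matches, on either strand, to 1 of 5 motifs: TGGGAA (Ikaros), GTAAACA (forkhead), TGTGGT (RUNX), CCACCC (KLF) and CAGGAAG (ETS).
Gimap6: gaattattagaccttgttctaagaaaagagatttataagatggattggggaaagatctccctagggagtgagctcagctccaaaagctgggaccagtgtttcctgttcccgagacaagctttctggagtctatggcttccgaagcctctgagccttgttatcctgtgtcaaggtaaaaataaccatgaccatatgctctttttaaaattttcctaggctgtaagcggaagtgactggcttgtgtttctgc
Gimap5: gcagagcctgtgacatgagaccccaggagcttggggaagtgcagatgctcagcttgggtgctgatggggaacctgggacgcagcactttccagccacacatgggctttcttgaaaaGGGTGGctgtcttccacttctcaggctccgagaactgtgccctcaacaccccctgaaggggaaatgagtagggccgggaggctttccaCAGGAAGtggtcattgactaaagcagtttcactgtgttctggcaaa
Gimap4: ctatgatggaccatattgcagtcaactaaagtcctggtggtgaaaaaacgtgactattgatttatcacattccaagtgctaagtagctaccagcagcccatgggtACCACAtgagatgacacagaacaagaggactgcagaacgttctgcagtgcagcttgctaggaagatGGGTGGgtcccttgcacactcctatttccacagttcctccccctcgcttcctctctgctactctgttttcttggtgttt
Gimap3: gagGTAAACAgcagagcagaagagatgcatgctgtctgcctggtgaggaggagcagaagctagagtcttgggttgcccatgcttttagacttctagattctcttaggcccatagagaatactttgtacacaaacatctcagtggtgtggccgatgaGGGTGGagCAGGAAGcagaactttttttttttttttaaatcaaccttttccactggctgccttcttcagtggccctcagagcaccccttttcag

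The motif search covered 300 bases a start site, 250 before and 50 after, in 9 Gimap windows (Gimap8 has 2 start sites). The Gimap6 window held none of the 5 motifs as written. The paper names the shorter GGGAA as the core of the Ikaros site, and the printed Gimap6 and Gimap5 bases hold that run. Shorter or related runs were not searched. The Gimap3 window held 4 of the 5 motifs: a forkhead match at -247, KLF matches at -94 and 26, an ETS match at -86 and, after the start site, the only TGGGAA match of the family at 23. In the Gimap4 window a RUNX match began at -145 and a KLF match at -79, and in the Gimap5 window a KLF match began at -134 and an ETS match at -46. Over all 32851 mouse windows of the same length, 25.6% held the Ikaros motif, 3.65% the forkhead motif, 16.8% the RUNX motif, 31.5% the KLF motif and 13.3% the ETS motif. Of the 9 Gimap windows, 1 held the Ikaros motif, 1 the forkhead motif, 3 the RUNX motif, 5 the KLF motif and 3 the ETS motif. Matches after the start site lie outside the printed bases. A match is a run of letters and not a bound site.

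Between 8208659 and 20247649 reads were assigned to genes in each library. Ikzf1 itself was at 105 ± 20.6 TPM (SD, n = 3, where TPM is transcript abundance corrected for gene length and library total) in WT ex vivo and 41.9 ± 2.82 in cKO ex vivo, and at 74.8 ± 8.48 in WT stimulated and 25.2 ± 7.43 in cKO stimulated. A value for the whole gene does not show whether the deleted exons are read. Foxp3 was measured at 82.7 to 253 TPM and Cd3e at 214 to 688 TPM, and no defining marker of Treg was absent. Markers of CD8 T cells, B cells, myeloid, NK, erythroid and endothelial cells were at most at 17.0 TPM in any library, and none was at 0 throughout. The B cell list summed to 12.8 to 16.2 TPM in WT ex vivo and 19.8 to 28.03 in cKO ex vivo, and the myeloid list to 14.2 to 17.3 in WT ex vivo and 23.1 to 35.3 in WT stimulated. Their part in the differences below was not tested. The library WT ex vivo 3 had Xist at 179 TPM, against at most 1.36 in the other 11, and Ddx3y at 0.0970 TPM, the pattern of a female, while the other 11 had that of males. A single gene model, Gm10800, took 17.7% to 55.9% of all TPM in a library. Its share was 17.7% to 39.8% in WT ex vivo and 20.4% to 24.4% in cKO ex vivo. After stimulation it was 32.6% to 44.4% in WT and 42.9% to 55.9% in cKO. The part of this share in the differences below was not tested. The reported fits and the values called scaled were therefore scaled between libraries by a trimmed mean of M-values (TMM). This was taken over the 13318 genes tested, those with a group mean of at least 5 TPM in 1 group or more. Levels given in TPM without the word scaled are as deposited. In bulk RNA, fewer cells that express a gene and less RNA per cell cannot be told apart.

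All 8 Gimap genes were expressed in Treg. In WT Treg taken ex vivo the 3 high members were Gimap6 (365 ± 125 TPM, SD, n = 3), Gimap3 (288 ± 93.9) and Gimap4 (215 ± 30.4). The other 5 lay between 31.4 ± 4.03 TPM (Gimap5) and 54.5 ± 7.12 TPM (Gimap8). TPM are per length and allow genes to be compared. Among the tested genes Gimap6 ranked 133 by its mean level in WT ex vivo, Gimap3 176 and Gimap4 249. Gimap6 stood above Gimap3 in 3 of 3 WT libraries, although the ranges of the groups overlapped, and Gimap3 stood above Gimap4 in 2 of 3. The step from Gimap4 down to Gimap8 was the only one between neighbours whose values did not overlap in WT ex vivo. Below it came Gimap8, Gimap9 (49.0 ± 7.37 TPM), Gimap7 (43.4 ± 10.8), Gimap1 (38.4 ± 8.81) and Gimap5. Each step between these neighbours was smaller than the SD of 1 or both of them. In cKO ex vivo Gimap6 was again first (268 TPM as a mean), followed by Gimap3 (252), Gimap4 (211), Gimap8 (49.1), Gimap9 (48.0), Gimap7 (47.3), Gimap1 (37.9) and Gimap5 (33.9). There the steps from Gimap3 to Gimap4, from Gimap4 to Gimap8 and from Gimap7 to Gimap1 were without overlap.

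The order at the top changed with stimulation. In both stimulated groups Gimap3 was highest, at 317 ± 58.9 TPM in WT and 308 ± 84.7 in cKO, followed by Gimap4 at 263 ± 59.1 and 249.9 ± 51.8. Gimap6 was the next, at 175 ± 17.6 and 122 ± 25.5 TPM, below Gimap4 in every stimulated library with no overlap. In both groups the step from Gimap6 down to Gimap8 was without overlap, and in WT stimulated so was that from Gimap7 (42.1 TPM) to Gimap5 (23.1). Gimap5 was the lowest member in all 4 groups.

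**Figure D1:**
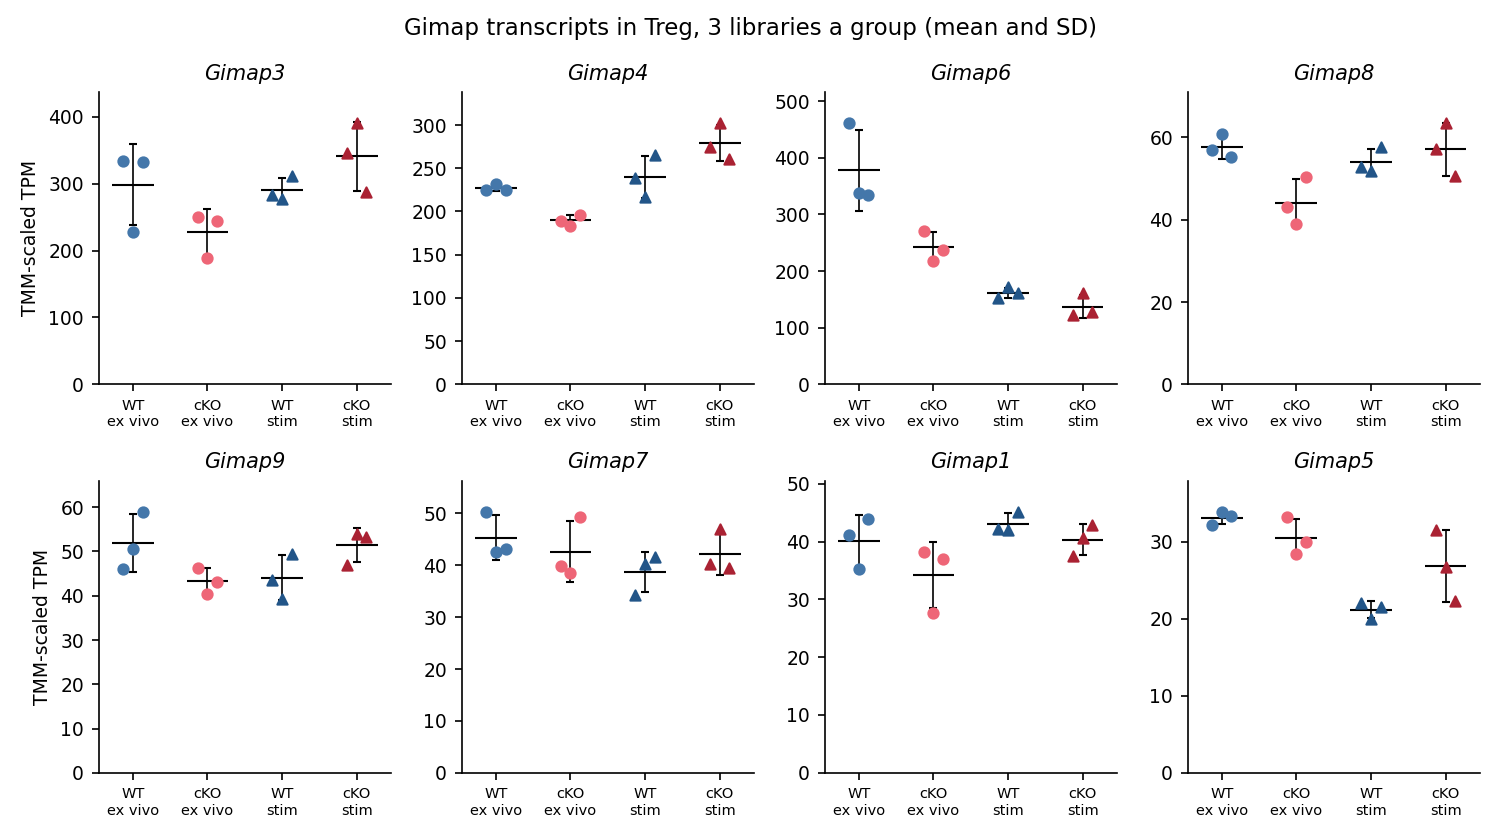
TMM-scaled TPM of each Gimap gene in the 12 libraries, with WT and cKO Treg ex vivo (circles) and after 4 h of stimulation (triangles), and with the mean (line) and SD (bar) of the 3 libraries of a group. Gimap6 falls from 334 to 461 in WT ex vivo to 152 to 171 in WT stimulated, while Gimap3 and Gimap4 stay high in every group.

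In stimulated against ex vivo WT Treg, Gimap6 and Gimap5 were lower, and no other member differed by the test. Gimap6, the partner of Gabarapl2, was at 507, 273 and 313 TPM as deposited in the 3 WT ex vivo libraries and at 170.2, 159.9 and 194 in the 3 WT stimulated libraries. After scaling these were 461, 338 and 334 against 152, 171 and 161. The groups did not overlap on either scale. The fitted level of Gimap6, on log2 of scaled TPM + 1, was 2.31 times higher ex vivo (log2 change -1.21, SE 0.15, limma, adjusted p = 0.000138). Gimap5, whose loss depletes T cells, was at 32.2, 33.9 and 33.3 scaled TPM ex vivo and at 21.99, 19.98 and 21.6 after stimulation, again without overlap (log2 change -0.62, SE 0.11, limma, adjusted p = 0.00173). The test called 2 of 8 members, both lower, and over all 13318 genes it called 32.0%, with 19.3% lower. Without scaling, Gimap6 fell by 1.01 on the log2 scale (adjusted p = 0.015), while the fall of Gimap5 by 0.43 did not pass (adjusted p = 0.21). The call of Gimap6 held in each of 22 alternative analyses and that of Gimap5 in 20 of 22.

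The remaining 6 members had log2 changes of -0.23 to 0.10 in WT Treg, with SEs of 0.09 to 0.17. Gimap4 was at 225, 232 and 225 scaled TPM ex vivo and at 239, 217 and 265 after stimulation, and the groups overlapped (0.07, SE 0.09). Gimap3 was at 334, 228 and 333 ex vivo and 284, 277 and 311 after stimulation (-0.02, SE 0.17). Neither change was larger than its SE here, but both depended on the scaling: with quantile normalization Gimap3 (0.75, adjusted p = 0.000373) and Gimap4 (0.80, adjusted p = 0.00011) were called higher after stimulation, as was Gimap1 (0.37, adjusted p = 0.0212). Gimap7, which helps other GIMAP proteins to hydrolyse GTP, had groups without overlap, at 42.6 to 50.3 scaled TPM ex vivo and 34.3 to 41.6 after stimulation, but did not pass the test (log2 change -0.22, SE 0.12, limma, adjusted p = 0.18). Groups without overlap on the scaled values were found in 3 of 8 members and in 47.5% of all genes tested. In the TPM as deposited this held for 2 of 8 members (Gimap5 and Gimap6) and 33.1% of all genes.

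In stimulated against ex vivo cKO Treg, members differed in both directions. Gimap6 fell from 271, 218 and 237 scaled TPM ex vivo to 123, 160.3 and 128 (log2 change -0.82, SE 0.15, limma, adjusted p = 0.00145), with no overlap between the groups there or in the TPM as deposited. Gimap4 rose from 189, 183 and 196 to 274, 302 and 261 scaled TPM (0.55, SE 0.09, adjusted p = 0.00098). Gimap3 rose from 251, 189 and 244 to 346, 390.3 and 287 (0.58, SE 0.17, adjusted p = 0.020). Gimap8, which carries several GTP-binding domains in 1 protein, rose from 43.2, 39.0 and 50.4 to 57.1, 63.4 and 50.8 (0.36, SE 0.11, adjusted p = 0.021), and its lowest stimulated library lay just above its highest ex vivo library. These 4 of 8 members compare with 43.8% of all genes tested that were called, 17.3% higher and 26.5% lower. The rises depended on the scaling: in the TPM as deposited the groups overlapped for Gimap3, Gimap4 and Gimap8 and none of them was called, with log2 changes of 0.25, 0.22 and 0.04. With a 1 TPM filter or no filter none of the 3 rises was called either, while Gimap5 was called lower (-0.72, adjusted p = 0.0473, and -0.71, adjusted p = 0.0485). Quantile normalization called 6 members higher and none lower, and over all genes tested it called 2293 higher and 2908 lower. The median of all genes was itself shifted by -0.31 in the TPM as deposited, against -0.01 with scaling. Without the cKO stimulated library 2, or without the cKO ex vivo library 2, Gimap3 (adjusted p = 0.094 and 0.065) and Gimap8 (adjusted p = 0.12 and 0.065) no longer passed. Gimap8 was also lost without the cKO ex vivo library 1 (adjusted p = 0.065) and in the limma fit of only the groups compared (adjusted p = 0.067).

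The other 4 members did not pass in cKO Treg. Gimap9 was at 40.4 to 46.3 scaled TPM ex vivo and 47.0 to 54.0 after stimulation, without overlap (log2 change 0.24, SE 0.11, limma, adjusted p = 0.10). Gimap1, needed by mature lymphocytes, was at 27.6 to 38.1 and 37.5 to 42.8 (0.24, SE 0.12), and Gimap7 at 38.5 to 49.3 and 39.4 to 46.9 (-0.01, SE 0.12). Gimap5 was at 33.2, 28.4 and 29.9 scaled TPM ex vivo and 31.5, 26.7 and 22.2 after stimulation, so that the groups overlapped (-0.19, SE 0.11, adjusted p = 0.19). On the scaled values 5 of 8 members had groups without overlap, against 53.5% of all genes tested, and in the TPM as deposited 1 did (Gimap6), against 51.4%.

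**Figure D2:**
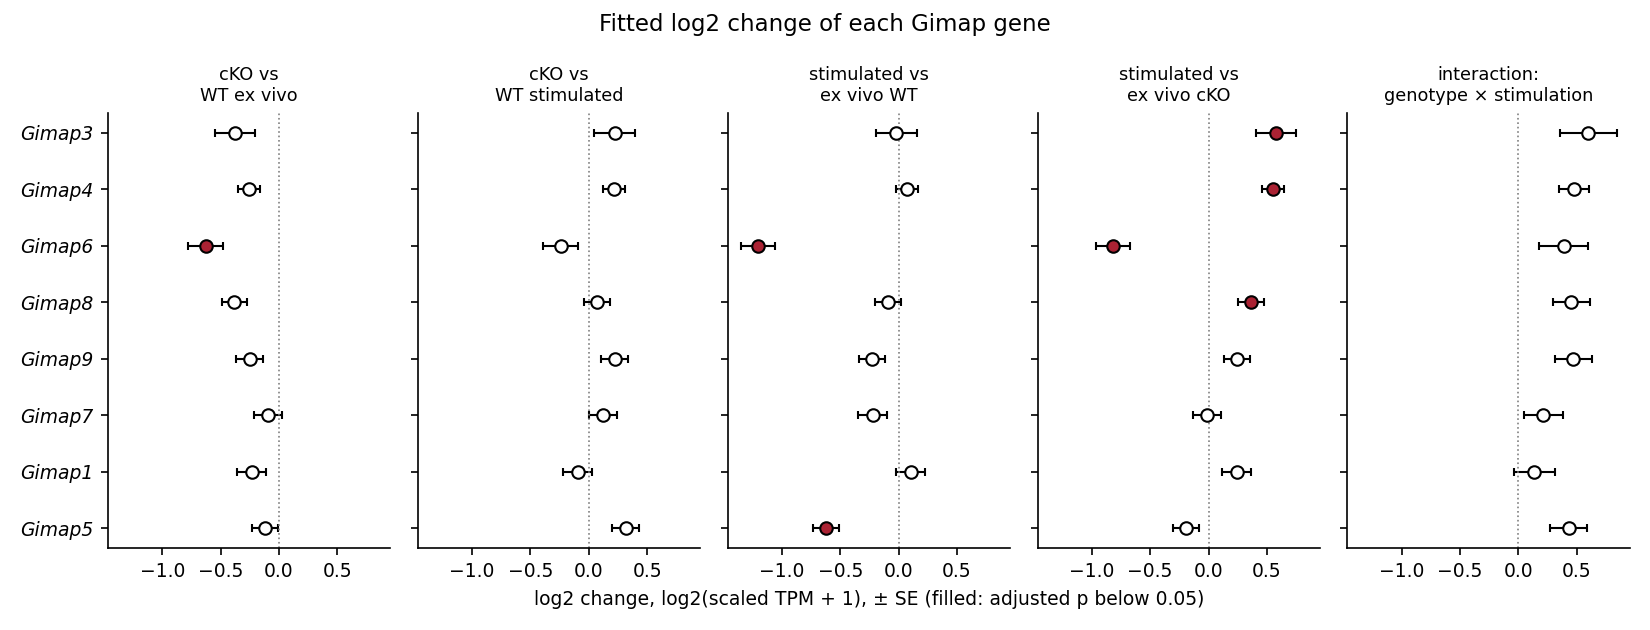
Fitted log2 change (log2 of scaled TPM + 1) with its SE for each Gimap gene in the 5 comparisons, filled where the adjusted p over 13318 genes is below 0.05. Gimap6 lies lowest in all 4 pairwise panels, and all 8 genes lie above 0 in the interaction panel without passing the test.

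Between genotypes ex vivo, 1 member was called. All 8 fitted log2 changes were below 0, from -0.63 to -0.09, with a median of -0.26, while the median over all genes tested was -0.01. In the TPM as deposited Gimap1 (0.00062), Gimap5 (0.11) and Gimap7 (0.14) were above 0 and the median of the 8 was -0.02, against 0.21 over all genes. Gimap6 was at 461, 338 and 334 scaled TPM in WT and at 271, 218 and 237 in cKO, with no overlap, and its fitted level was 1.55 times higher in WT (log2 change -0.63, SE 0.15, limma, adjusted p = 0.0340). In the TPM as deposited the lowest WT library (273) was below the highest cKO library (285), so there the groups overlapped. The share of all genes called in this comparison was 5.29%, with 1.67% called downward. The call did not hold widely: it remained in 9 of 22 alternatives, and in 5 of the 12 that left out 1 library. It was lost without any single cKO ex vivo library (adjusted p = 0.053 to 0.11), without WT ex vivo 1 (log2 change -0.48, adjusted p = 0.090), without WT ex vivo 3, the library that differed in sex (-0.71, adjusted p = 0.051), and without WT stimulated 2 or 3 (adjusted p = 0.055 and 0.056).

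Among the other members Gimap8 came nearest to the threshold, at 56.9, 60.9 and 55.2 scaled TPM in WT and 43.2, 39.0 and 50.4 in cKO ex vivo, without overlap (log2 change -0.38, SE 0.11, limma, adjusted p = 0.074). Gimap4 was also without overlap, at 225 to 232 in WT and 183 to 196 in cKO (-0.26, SE 0.09, adjusted p = 0.16). Gimap3 overlapped, at 228 to 334 and 189 to 251 (-0.38, SE 0.17, adjusted p = 0.29). On the scaled values 3 of 8 members had groups without overlap, all lower in cKO, against 21.5% of all genes tested in either direction. In the TPM as deposited no member did, against 22.9% of all genes. Gimap7 (-0.09, SE 0.12) and Gimap5 (-0.12, SE 0.11) had the smallest differences.

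After stimulation no member differed between genotypes by the test. The limma fit called 0 of 8 after adjustment, against 6.93% of all genes, and 2 of 8 had an unadjusted p under 0.05, against 23.8% of all genes. These were Gimap5 (21.2 ± 1.06 scaled TPM in WT and 26.8 ± 4.64 in cKO, log2 change 0.31, SE 0.11, adjusted p = 0.12) and Gimap4 (240.2 ± 24.1 and 279 ± 20.9, 0.22, SE 0.09, adjusted p = 0.19). The voom fit on recovered reads also called 0, whereas quantile normalization called 3 higher in cKO (Gimap3 at 0.43, adjusted p = 0.0251, Gimap4 at 0.43, adjusted p = 0.0145, and Gimap5 at 0.45, adjusted p = 0.0234). The direction of Gimap4 turned in the TPM as deposited (-0.073) and with a 1 TPM filter (-0.089). Gimap5 was the 1 member of 8 without overlap on the scaled values, against 30.8% of all genes tested. Gimap6 was at 152, 171 and 161 scaled TPM in WT and 123, 160.3 and 128 in cKO (-0.24, SE 0.15, adjusted p = 0.35). In the TPM as deposited its groups did not overlap (159.9 to 194 against 93.8 to 143), which held for 1 of 8 members and 30.8% of all genes.

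The interaction, which asks whether the response to stimulation differed between the genotypes, called no member. It and the 4 pairwise comparisons use the same libraries, so their values are not independent of each other. In the limma fit 0 of 8 passed, against 1.1% of all genes, and 5 of 8 had an unadjusted p under 0.05, against 14.5%. With voom on the recovered reads the count was also 0, and with quantile normalization it was 3 (Gimap3, adjusted p = 0.0429, Gimap4, adjusted p = 0.0399, and Gimap8, adjusted p = 0.0318). All 8 values were above 0, from 0.14 for Gimap1 to 0.60 for Gimap3, with a median of 0.44, where the median over all genes was -0.04. The smallest p was that of Gimap4 (0.48, SE 0.13, adjusted p = 0.12). The sign rested on the scaling: in the TPM as deposited 7 of 8 values were below 0, and there the median of all genes was shifted to -0.52. All 8 members were above that shifted median. With a 1 TPM filter or no filter 6 of 8 were above the median of all genes, with Gimap1 and Gimap7 below it, and the median of the 8 lay 0.22 and 0.21 above it, against 0.48 as reported.

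The share of each member in the summed Gimap TPM needs no scaling between libraries. The plot of family make-up gives these shares by library, and Gimap6 is the member whose share differed most between the groups. Before stimulation it held 37.0%, 33.1% and 29.6% of the sum in the WT libraries and 29.7%, 28.5% and 26.7% in those of cKO. After stimulation it held 17.5%, 19.96% and 16.9% in WT and 12.9%, 14.8% and 14.5% in cKO. The shares of stimulated and ex vivo libraries did not overlap in either genotype. Between genotypes they did not overlap after stimulation (18.1% ± 1.64 in WT and 14.0% ± 1.03 in cKO, SD, n = 3) and overlapped by 1 pair of libraries ex vivo (33.2% ± 3.66 and 28.3% ± 1.52). Gimap4 held 20.2% ± 2.33 in WT ex vivo and 26.9% ± 1.39 in WT stimulated, and Gimap3 26.2% ± 3.63 and 32.5% ± 0.235, both without overlap. Gimap5 was the only other member with a lower share after stimulation in both genotypes, at 2.95% ± 0.368 and 2.38% ± 0.137 in WT and 3.58% ± 0.182 and 2.76% ± 0.466 in cKO. Shares sum to 100, so a lower share of 1 member raises the others. These shares are given as a description and were not tested.

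**Figure D3:**
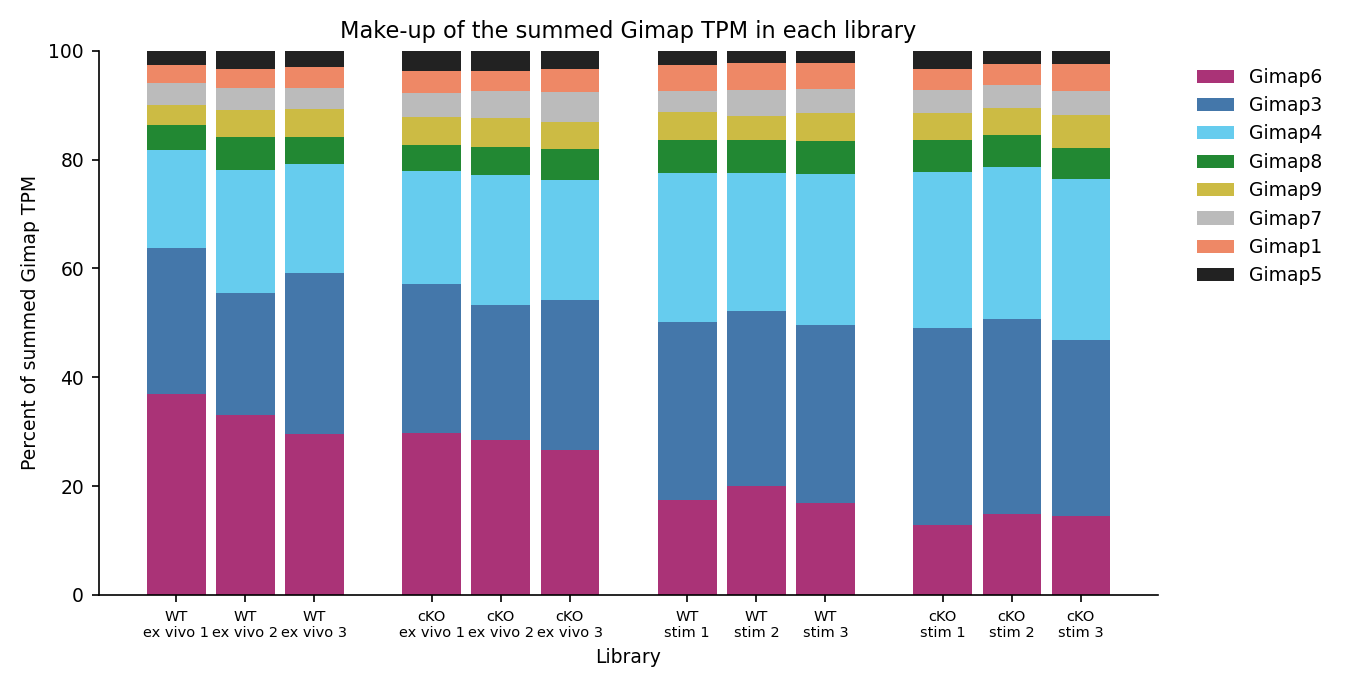
Percent of the summed TPM of the 8 Gimap genes held by each gene, in each of the 12 libraries. The Gimap6 part shrinks from 29.6% to 37.0% in WT ex vivo to 12.9% to 14.8% in cKO stimulated, and Gimap3 and Gimap4 together fill most of the rest.

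The same was seen member by member. The ratio of Gimap6 to Gimap4 went from 1.66 ± 0.333 (SD, n = 3) ex vivo to 0.677 ± 0.0986 after stimulation in WT Treg and from 1.27 ± 0.135 to 0.490 ± 0.0410 in cKO Treg. After stimulation Gimap6 was lower relative to each of the other 7 members without overlap, in WT and in cKO. Between genotypes this was so for 6 of the 7 after stimulation (all but Gimap1) and for 3 of the 7 ex vivo. The 7 ratios share 1 numerator and are not independent of each other, and no share over all genes was computed for such ratios.

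The groups overlapped in the summed Gimap TPM as deposited. It was 1085 ± 274 TPM (SD, n = 3) ex vivo and 975 ± 175 after stimulation for WT, and 947 ± 43.6 and 875 ± 197 for cKO. The exact two-sided permutation p was 0.5 and 0.6 for genotype ex vivo and after stimulation, and 0.6 and 0.9 for stimulation in WT and in cKO, in a test that cannot go below 0.1. WT ex vivo 1 had the highest sum of all libraries (1372 TPM) and cKO stimulated 3 the lowest (648 TPM). On the scaled values the WT ex vivo libraries (1021 to 1247) were all above those of cKO ex vivo (765 to 912) and of WT stimulated (858 to 952), each at p = 0.1, the smallest the exact test allows.

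The fitted values rest on how libraries are scaled to each other, which the plot of scalings shows for the response to stimulation. With median of ratios, with voom and without Gm10800 the 8 values were close to those reported. Quantile normalization raised all of them, and a filter of 1 TPM, which scales on many more weakly expressed genes, lowered them. Gimap6 was the lowest member under each of these scalings in cKO Treg. In WT Treg it was the lowest under each except quantile normalization, where Gimap5 was lower (-0.43 against -0.42).

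**Figure D4:**
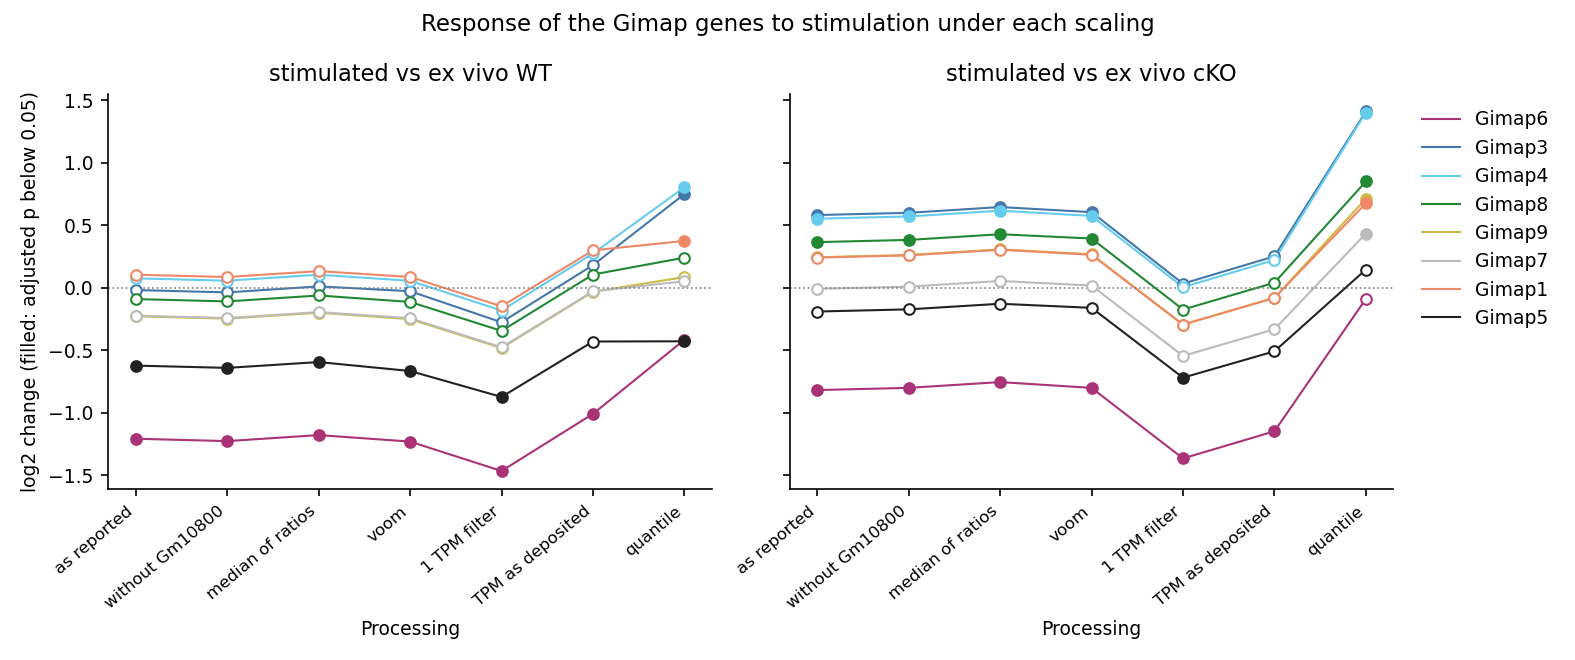
Fitted log2 change of each Gimap gene between stimulated and ex vivo Treg, in WT (left) and cKO (right), under 7 ways of processing, with lines joining the values of 1 gene and filled points for an adjusted p below 0.05. Gimap6 is called under every scaling in WT and under all but quantile normalization in cKO, while the rises of Gimap3, Gimap4 and Gimap8 in cKO are not called with a 1 TPM filter or with TPM as deposited.

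Across the 12 libraries the members did not all move together. For the 28 pairs of members, Pearson's r of log2 scaled TPM ranged from -0.52 to 0.79, with a median of 0.35, over libraries that share groups and depth, so these values are a description. The pairs with Gimap6 had a median of -0.02, and those with Gimap8 a median of 0.54. Gimap8 followed the mean profile of the family most closely (r = 0.83), then Gimap3 (0.79) and Gimap9 (0.76), and Gimap6 least (0.29). Each member is itself part of that profile, which raises its r, so these values do not compare with those of genes outside the family. Of the 3569 genes outside the family with a mean of at least 20 TPM, the 8 most like the family profile were Ahcyl2 (r = 0.85), Elf1 (0.85), Whsc1l1 (0.83), Fam102a (0.83), Tmem64 (0.79), Rbms1 (0.76), Nr4a1 (0.75) and Atp11b (0.74), over 12 libraries. Elf1 encodes a transcription factor of the ETS family, and Nr4a1 an orphan nuclear receptor induced by T cell receptor signals. Ahcyl2 was at 25.5 ± 5.20 TPM (SD, n = 3) before and 24.7 ± 4.07 TPM after stimulation of WT Treg, and at 23.4 ± 0.0678 and 24.99 ± 7.22 TPM in cKO Treg. For Nr4a1 these levels were 975 ± 247 and 751 ± 92.6, and 655 ± 28.8 and 604 ± 187.

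Within 100 kb of the ends of the Gimap cluster or inside it the annotation has 10 other genes, of which 7 were tested. Tmem176b and Tmem176a, a pair of membrane protein genes beyond Gimap3, were higher in cKO ex vivo: Tmem176b was at 4.30 ± 0.769 TPM in WT and 22.7 ± 1.69 in cKO (log2 change 1.96, SE 0.11, limma, adjusted p = 7.19e-06), and Tmem176a at 2.91 ± 0.414 and 21.3 ± 1.74 (2.30, SE 0.21, adjusted p = 0.00016). No Gimap gene was higher in cKO ex vivo by the test. After stimulation both were still higher in cKO (Tmem176b by a log2 change of 1.43 and Tmem176a of 1.46). Lrrc61, before Gimap8, fell with stimulation in WT from 16.9 ± 3.52 to 9.84 ± 2.29 TPM (-0.91, SE 0.09, adjusted p = 3.88e-05). Gm3345, a noncoding gene inside the cluster on the strand opposite to Gimap1, fell from 26.1 ± 6.02 to 15.7 ± 4.06 TPM (-0.89, SE 0.17, adjusted p = 0.0023). It shares 103 bases with the exons of Gimap1, and reads were counted by strand.

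**Figure D5:**
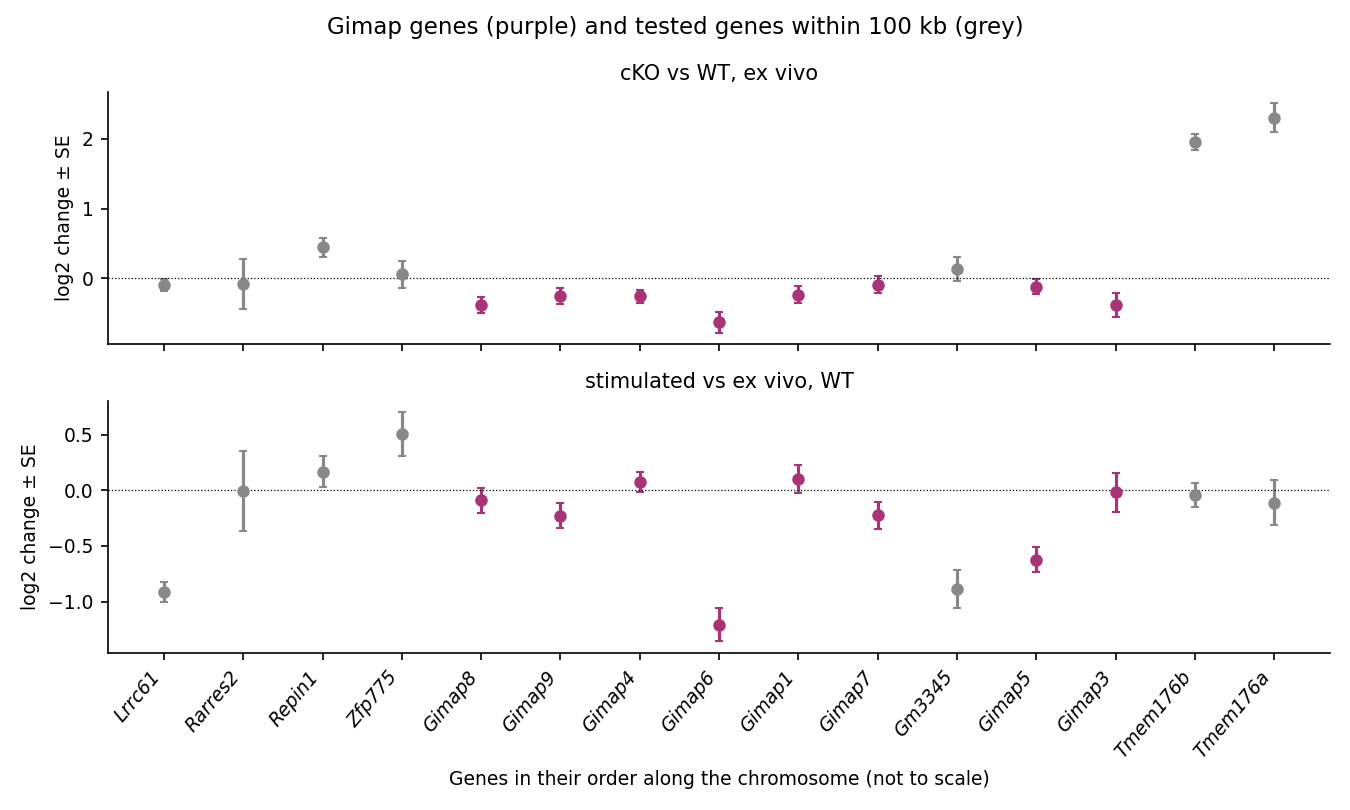
Fitted log2 change with its SE for the 8 Gimap genes (purple) and the 7 tested genes within 100 kb or inside the cluster (grey), in their order along the chromosome, between genotypes ex vivo (top) and with stimulation in WT (bottom). Tmem176b and Tmem176a stand at 1.96 and 2.30 in the top panel, where all 8 Gimap genes are below 0, and Gimap6 at -1.21 in the bottom panel.

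Of 20 quiescence and naive T cell genes, 12 fell and 2 rose with stimulation in WT, where 19.3% of all genes tested fell and 12.7% rose. In cKO 16 of the 20 fell and none rose, where 26.5% of all genes fell and 17.3% rose. The median log2 changes of the list were -0.49 and -0.86, against 0.00 and -0.01 over all genes. Klf2, a factor that keeps T cells quiescent, fell by 3.60 on the log2 scale in WT (SE 0.15, limma, adjusted p = 2.1e-07) and by 2.69 in cKO. Tob1, an inhibitor of proliferation, fell by 1.98 and 2.22. The 2 that rose in WT were Slfn2 (0.58) and Bach2 (0.46). Between genotypes ex vivo 4 of the 20 were lower in cKO, against 1.67% of all genes, with the largest difference in Klf2 (-1.44, limma, adjusted p = 0.000482). After stimulation 6 were lower in cKO, against 3.63% of all genes, led by Tcf7 (-1.30) and S1pr1 (-1.26), where no Gimap gene passed.

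The BCL2 family genes, which Gimap3, Gimap4 and Gimap5 have been tied to, had calls in both directions. Of 10, 1 rose and 4 fell with stimulation in WT, and 5 called of 10 compare with 32.0% of all genes. The survival gene Bcl2l1 rose by 0.70 on the log2 scale, and Bcl2 fell by 1.39 and Pmaip1, a promoter of cell death, by 1.34. In cKO 2 rose and 4 fell, and 6 called of 10 compare with 43.8%. The median log2 changes were 0.11 and -0.24. None of the 10 was called between genotypes ex vivo, against 5.29% of all genes. After stimulation 1 was higher and 1 lower in cKO, against 6.93% of all genes called. These were Bcl2 (0.98, SE 0.12, limma, adjusted p = 0.00101) and Bcl2l11, which promotes cell death (-1.03, SE 0.13, limma, adjusted p = 0.00123). Of 14 GABARAP and autophagy genes, which include the partner of Gimap6, 3 rose and 7 fell in WT with stimulation, against 12.7% and 19.3% of all genes, and 1 rose and 8 fell in cKO, against 17.3% and 26.5%. The median log2 changes were -0.28 and -0.36. The fall of Map1lc3b, a marker of autophagosomes, was 0.73 and 0.92 on the log2 scale. Between genotypes ex vivo 2 of the 14 were called, against 5.29% of all genes: Ulk1 (0.53) and Gabarapl1 (0.47), both higher in cKO. After stimulation 1 of the 14 was called, against 6.93% of all genes. This was Atg12, which takes part in autophagosome formation and was lower in cKO (-0.36, SE 0.09, limma, adjusted p = 0.0443). Gabarapl2 itself was at 8.28 to 10.6 TPM as group means.

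Of 8 activation genes, which served as a check of the stimulation, 4 rose and 2 fell in WT, against 12.7% and 19.3% of all genes, and 5 rose and 2 fell in cKO, against 17.3% and 26.5%. Tnfrsf9, a costimulatory receptor, rose by log2 changes of 1.85 and 2.26. Cd69, an early activation marker, fell in both (-1.36 and -1.71), from 364 ± 112 TPM in WT ex vivo to 158 ± 13.1 in WT stimulated (SD, n = 3). Of the genes induced by T cell receptor signals, Nr4a1 also fell in WT (-0.55, SE 0.17, limma, adjusted p = 0.0307) and Egr1 in cKO (-0.69, SE 0.25, limma, adjusted p = 0.0404). The median log2 changes of the 8 were 0.23 in WT and 0.65 in cKO.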

How the data were processed

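RNA of sorted Treg, from spleen per the labels, was sequenced as 51 bp paired reads after rRNA depletion with a directional kit, 1 mouse per library. The paper's general account of T cell purification names lymph nodes as well as spleen. Per the submitters' notes, reads were aligned to mm9 with STAR 2.6.0c and counted by strand with HTSeq 0.6.1 on Ensembl release 67. The deposited signal is TPM per gene and library (unit: signal, since 1 column stacks all libraries), and the authors also deposited log2 of TPM plus the TPM of 1 read. The authors' own comparison columns were not used. Both columns gave back whole reads (99.9977% of values within 0.01 of a whole number, 10 outside).

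Genes with a group mean of at least 5 TPM in 1 group or more (13318) were scaled by an unweighted trimmed mean of M-values (30% of M and 5% of A trimmed), and log2(scaled TPM + 1) was fitted with limma 3.58.1 (R 4.3.3, intensity trend) over all 12 libraries, with Benjamini-Hochberg adjustment over all genes tested and a threshold of 0.05. The fold changes are on the log2(value + 1) scale, which understates changes of low genes. P-values measure the spread between the libraries of a group, each from 1 mouse. Whether the ex vivo and stimulated libraries of a genotype came from the same mice is not stated. The reported fit ignored any such pairing. Summed TPM was compared by exact permutation. The script was tested on simulated data. Alternatives were another filter, pseudocount, scaling, fit, block and each library left out.

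The named genes were the 8 members, Ikzf1, the 8 genes most like the family profile, genes within 100 kb and, per list and comparison, up to 2 called genes in each direction, of which 1 is not reported here. The members and lists were chosen with earlier results of these data known. Coordinates are of NCBIM37, and promoter sequences are RefSeq, GRCm38.p6.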

Additional observations from a re-analysis of the deposited data

How the results depend on the processing

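The fall of Gimap6 with stimulation in WT passed in all 22 alternatives (log2 change -1.47 to -0.42), and that in cKO in all but quantile normalization (-0.09, adjusted p = 0.629). The other calls depended on the scaling or the filter, and the cause was not tested. The planned edgeR test was not run; limma's voom on recovered reads and the removal of Gm10800 were added after seeing the data. The 8 genes had 8671 to 30156 reads in a library, and the lowest single values were 262 (Gimap7), 274 (Gimap5) and 457 (Gimap9); the effect of depth was not tested. With 3 libraries a group the SEs were 0.09 to 0.17 on the log2 scale in the pairwise comparisons and 0.13 to 0.25 in the interaction, and the TPM of a library depend on the share of Gm10800.

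The median change of all genes was shifted in the TPM as deposited, to 0.21 and -0.30 between genotypes ex vivo and stimulated, 0.18 and -0.31 with stimulation in WT and cKO, and -0.52 in the interaction. Relative to these medians the Gimap medians were -0.23, 0.18, -0.14, 0.23 and 0.45, against -0.25, 0.21, -0.16, 0.25 and 0.48 as reported. They turned to -0.092 and -0.32 (genotype after stimulation and stimulation in cKO) with a 1 TPM filter and to -0.10 and -0.32 with no filter, and in WT with stimulation they were -0.42 and -0.40. With quantile normalization the 5 were -0.21, 0.41, 0.13, 0.69 and 0.65.

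Over all genes, the 704 calls between genotypes ex vivo became 57 with a 1 TPM filter, 56 with no filter, 273 in the TPM as deposited (260 higher and 13 lower, against 482 and 222), 310 with only the groups compared, 1232 with voom, and 324 to 740 with 1 library left out. The 923 after stimulation became 68, 68, 306 (69 higher and 237 lower, against 439 and 484), 546 with only the groups compared, 1579 with quantile normalization, and 398 to 1054. The 4262 in WT with stimulation became 1838 (304 higher and 1534 lower, against 1688 and 2574), 1694 with no filter, 1943 in the TPM as deposited (1175 higher and 768 lower), and 3256 to 4387. With quantile normalization they were 3983 (2062 higher and 1921 lower). The 5835 in cKO stayed within 1.5 times (4098 to 5992 with 1 library left out), but 2305 were higher as reported and 757 with a 1 TPM filter, 727 with no filter and 558 in the TPM as deposited. The 147 of the interaction became 0 with either filter, 67 in the TPM as deposited (6 higher and 61 lower), 392 with quantile normalization, 336 with voom, and 50 to 203.

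Of the Gimap genes, the 1 called between genotypes ex vivo became 0 with a 1 TPM filter, no filter, TPM as deposited, quantile normalization or only the groups compared, and 2 with voom or without Gm10800 (0 to 2 with 1 library left out). After stimulation quantile normalization called 3 (0 to 1). The 2 in WT with stimulation became 1 with no filter and in the TPM as deposited, each lower, and 5 with quantile normalization, 3 higher (Gimap1, Gimap3 and Gimap4) and 2 lower (2 to 2). The 4 in cKO, 3 higher and 1 lower, became 2 with a 1 TPM filter or no filter, both lower (Gimap6 and Gimap5, the latter not among the 4), 1 lower in the TPM as deposited, and 6 higher with quantile normalization (2 to 5). In the interaction quantile normalization called 3 (0 to 0). The ratio of summed Gimap TPM turned to 1.09 between genotypes after stimulation and to 1.14 with stimulation in cKO when scaled; with 1 library left out the 4 ratios were 0.780 to 1.01, 0.823 to 1.01, 0.803 to 1.04 and 0.852 to 1.04.

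Same-numbered libraries had correlations of -0.21 to 0.26, so the numbers were not taken to pair the samples. With the replicate block the interaction called 65 genes, and the ex vivo comparison of genotypes 0 Gimap genes (Gimap6 at adjusted p = 0.0656); the other counts were 516, 630, 3945 and 5457 over all genes.

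Of 872 member values, 62 changed sign, of which 2 belong to a called member (Gimap8 in cKO with stimulation). A further 2 passed the test in the opposite direction, both with quantile normalization: Gimap3 in WT (adjusted p = 0.000373) and Gimap7 in cKO (adjusted p = 0.00338) with stimulation. In the TPM as deposited these were, between genotypes ex vivo, Gimap1 (0.00062), Gimap5 (0.11) and Gimap7 (0.14), and after stimulation Gimap3 (-0.069), Gimap4 (-0.073), Gimap7 (-0.16), Gimap8 (-0.21) and Gimap9 (-0.065). With stimulation they were Gimap3 (0.18) and Gimap8 (0.11) in WT and Gimap1 (-0.082) and Gimap9 (-0.081) in cKO, and in the interaction Gimap1 (-0.38), Gimap4 (-0.052), Gimap5 (-0.078), Gimap6 (-0.14), Gimap7 (-0.30), Gimap8 (-0.065) and Gimap9 (-0.048). With a 1 TPM filter and with no filter they were, between genotypes after stimulation, Gimap3 (-0.085 and -0.082), Gimap4 (-0.089 and -0.086), Gimap7 (-0.18 and -0.17), Gimap8 (-0.23 and -0.23) and Gimap9 (-0.080 and -0.076). With stimulation under these filters they were Gimap1 (-0.15 and -0.12) and Gimap4 (-0.18 and -0.15) in WT, Gimap1 (-0.30 and -0.28), Gimap8 (-0.17 and -0.16) and Gimap9 (-0.29 and -0.28) in cKO, and in the interaction Gimap1 (-0.15 and -0.16) and Gimap7 (-0.068 and -0.085). With quantile normalization they were Gimap1 (0.075) between genotypes after stimulation, Gimap3 (0.75), Gimap7 (0.052), Gimap8 (0.24) and Gimap9 (0.085) in WT and Gimap5 (0.14) and Gimap7 (0.43) in cKO. Median of ratios turned Gimap3 in WT (0.010) and Gimap7 in cKO (0.054), and Gimap7 in cKO was at 0.017 with voom and 0.0084 without Gm10800. With 1 library left out, signs changed for Gimap1 in the interaction (-0.0052 to 0.23), Gimap3 in WT (-0.20 to 0.081), Gimap7 in cKO (-0.13 to 0.10) and Gimap8 between genotypes after stimulation (-0.033 to 0.18).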

Other observations

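The genes whose levels over the 12 libraries were most like those of Gimap6 were looked up after its values were seen. They were Dusp10 (Pearson's r = 0.99), a phosphatase of stress kinases, Itga6 (0.99), an integrin chain, Tcp11l2 (0.98), Pacs1 (0.98) and Grap2 (0.98), an adaptor of T cell receptor signalling, with no test. Dusp10 was at a mean of 529.8 TPM before and 123 TPM after stimulation of WT Treg, and of 312 and 68.9 TPM in cKO Treg.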
